A study of Mus musculus with 6 samples.

Results

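The genes that encode the constitutive proteasome were followed in endothelial cells (EC) of the mouse lung. They were taken from the deposited expression table by name: symbols that begin with Psma, Psmb, Psmc, Psmd, Psme, Psmf or Psmg and a number, without the interferon-inducible genes Psmb8, Psmb9, Psmb10, Psme1 and Psme2. This gave 43 of the 12623 genes in the table, each represented by its transcript row with the highest mean. Of these, 31 encode subunits of the 26S proteasome (14 of its 20S core and 17 of its 19S regulatory particle). A further 10 encode assembly chaperones, alternative activators or an inhibitor, and Psma8 encodes a germ cell variant of a core subunit. Psmc3ip matched the name rule only because its protein was found as a partner of a proteasome ATPase. It is a recombination factor and no proteasome subunit, so the label of the group does not hold for it.

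The proteasome is the protease that destroys ubiquitin-tagged proteins in the cytosol and nucleus of every cell. Its barrel-shaped 20S core stacks rings of alpha subunits, which gate the entrance, around rings of beta subunits, of which PSMB5, PSMB6 and PSMB7 carry the chymotrypsin-like, caspase-like and trypsin-like active sites. The 19S particle caps the core: its base holds a ring of ATPases (PSMC) that unfold substrates, and its lid holds the deubiquitinase PSMD14, which cuts off the ubiquitin chain. Under interferon, and constitutively in many immune cells, PSMB8, PSMB9 and PSMB10 are built into new cores in place of PSMB5, PSMB6 and PSMB7, which changes the peptides made for class I antigen presentation.

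RNA was sequenced from live CD31+ CD34+ cells sorted from lungs of C57BL/6N mice, with a gate against PTPRC (leukocytes), LY76 (erythroid cells), LYVE1 and PDPN (lymphatic EC), in 3 infant libraries (mice in the second postnatal week) and 3 young adult libraries. The values are the authors' RPKM (reads relative to transcript length and to all mapped reads), so the read depth behind each value is unknown. A level is given per length, but other differences between transcripts are not corrected by it, so levels of different genes compare only roughly. Neither the labels nor the methods say how many animals a library holds or that libraries of a group came from separate animals, so p-values measure the spread between these libraries, which may be technical. In what follows, 3 values of a group are those of replicates 1, 2 and 3 in this order. Summed over 10 endothelial markers, levels were 2876 to 4305 RPKM in infant and 4653 to 5136 RPKM in young adult libraries. Markers of other cells moved with age too. 8 fibroblast markers summed to 238.8 to 1112 RPKM in infant and 8.4 to 18.1 RPKM in young adult libraries, and 7 mural markers to 65.5 to 228.8 RPKM against 11.5 to 15.0 RPKM. The 8 epithelial markers gave 6378 to 11222 RPKM against 1782 to 8273 RPKM, and the 7 leukocyte markers 488.3 to 690.5 RPKM against 283.8 to 956.9 RPKM. These sums overlapped between groups. By gene, the log2 fold change of young adult over infant was below 0 for all 8 epithelial and 6 of the 7 leukocyte markers. It was above 0 in 41.4% of all tested genes. At an adjusted p under 0.05, 3 epithelial and 2 leukocyte markers were lower, against 16.2% of all tested genes. The median log2 fold changes of the 2 lists were -0.94 and -1.23. No marker of these lists was at 0 in all libraries of a group. Infant replicate 2 had the lowest fibroblast and mural sums of the infant libraries. It also had the highest epithelial sum of all 6 libraries (11222 RPKM). Its leukocyte sum (652.5 RPKM) lay between those of infant replicates 1 and 3 (488.3 and 690.5 RPKM). The 5 globin genes took 11.03%, 3.41% and 23.5% of the RPKM total in infant replicates 1 to 3 and under 0.5% in each young adult library. The Y-linked genes Ddx3y, Eif2s3y, Kdm5d and Uty were at 2.1 to 21.9 RPKM in every infant library. They were listed at 0 in every young adult library. The X-linked gene Xist measured 8.2, 8.7 and 7.6 RPKM (infant) against 15.6, 12.5 and 13.4 RPKM (young adult). Each infant library thus held Y-linked transcripts together with Xist. Whether male and female pups were pooled in it was not tested. Age and the sex of the animals therefore cannot be told apart. The methods name female mice, and the Y-linked transcripts of the infant libraries go against that. What these differences contribute to the values below was not tested, except for the globin share. In sorted cells measured in bulk, fewer cells of a type and less RNA per cell cannot be told apart.

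Promoter windows (250 bases before to 50 bases after a start, RefSeq, GRCm38.p6, the coordinates of mm10) were at hand for 35 of the 43 genes, 37 windows in all. They were not at hand for Psma8, Psmb1, Psmb2, Psmb7, Psmc3, Psmd3, Psmd7 and Psmg2. Each window was searched on both strands for TGACNNNGC, the core of the antioxidant response element to which the proteasome gene activators NFE2L1 and NFE2L2 bind, for CCAAT, the site of NF-Y, and for CCGGAAG, a site of ETS factors. No motif contains another. The core of the antioxidant element was in 6 member windows (16.2%), against 14.4% of the windows of all genes in the table. CCAAT was in 13 (35.1%, against 37.6%). CCGGAAG was in 16 (43.2%), against 17.2% of the windows of genes in the table and 8.86% of all RefSeq windows. By particle, CCGGAAG was in a window of 9 of the 14 genes of the 19S particle that had one (in Psmd13 at or after the start) and of 1 of the 11 genes of the 20S core, Psma6. CCAAT was in a window of 6 of the same 11 core genes, 5 of them alpha genes. These matches are letters in a window and say nothing about binding. The windows of 24 bases below come from promoters of genes that were higher in young adult EC, described further on, and from that of Psmb5. They show which letters stood before which start. Capitals mark the match, and each is written along the strand of its gene:
Psma1 (chr7:114276200-114276223, minus strand): agcttcctgCCAATcccacgttct
Psma7 (chr2:180042646-180042669, minus strand): tgcctgtcgCCAATgcgcgctcga
Psmc2 (chr5:21785238-21785261, plus strand): ggcctcgcgCCAATgcgcgcggcc
Psmc2 (chr5:21785183-21785206, plus strand): agtgagcaCTTCCGGgatggggct
Psmd11 (chr11:80428591-80428614, plus strand): cgcgagggcgggtCTTCCGGgtgt
Psmb6 (chr11:70525333-70525356, plus strand): gcggactaaagagagTGACGGAGC
Psmb5 (chr14:54618026-54618049, minus strand): gaagttgTGACGTCGCggcgttgc

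CTTCCGG is CCGGAAG read on the other strand. The first base of the match lay 98 bases before the start in Psma1, 196 in Psma7, 28 and 84 in Psmc2, 11 in Psmd11, 9 in Psmb6 and 47 in Psmb5. These starts are those of the windows. For Psmb6 that is base 70525357, which lies inside the gene as annotated (from 70525324), so its match is before that start but not before the gene. For the other genes shown the start is also where the annotated gene begins. Psmg4, the remaining gene that was higher, had none of the 3 motifs in its window. The 43 genes themselves are scattered over 16 chromosomes, with at most 9 on one (chromosome 11).

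Proteasome transcripts were abundant at both ages. The median of the 43 genes was 47.7, 51.8 and 52.1 RPKM (infant) against 49.9, 51.2 and 58.5 RPKM (young adult). With each gene taken as its mean over the 6 libraries, the median of the 43 genes (54.5 RPKM) lay above 92.5% of all tested genes. 42 genes reached 1 RPKM in all 6 libraries and 35 reached 10 RPKM. Psma8 stayed at 0.4 to 1.1 RPKM and entered the test only through young adult replicate 2, at 1.1 RPKM. Among the 31 subunits of the 26S particle, which is built with equal numbers of each core subunit and of most cap subunits, mean levels still differed 13.7-fold, from 11.95 RPKM for Psmd3 to 163.8 RPKM for Psma7. Genes of the core (median 83.0 RPKM) and of the base ATPases (83.2 RPKM) stood highest, followed by the base non-ATPases (58.5 RPKM) and the lid (49.5 RPKM). The assembly chaperones of the core (9.93 RPKM) and the group of activators and inhibitor (6.57 RPKM) were lowest.

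**Figure D1:**
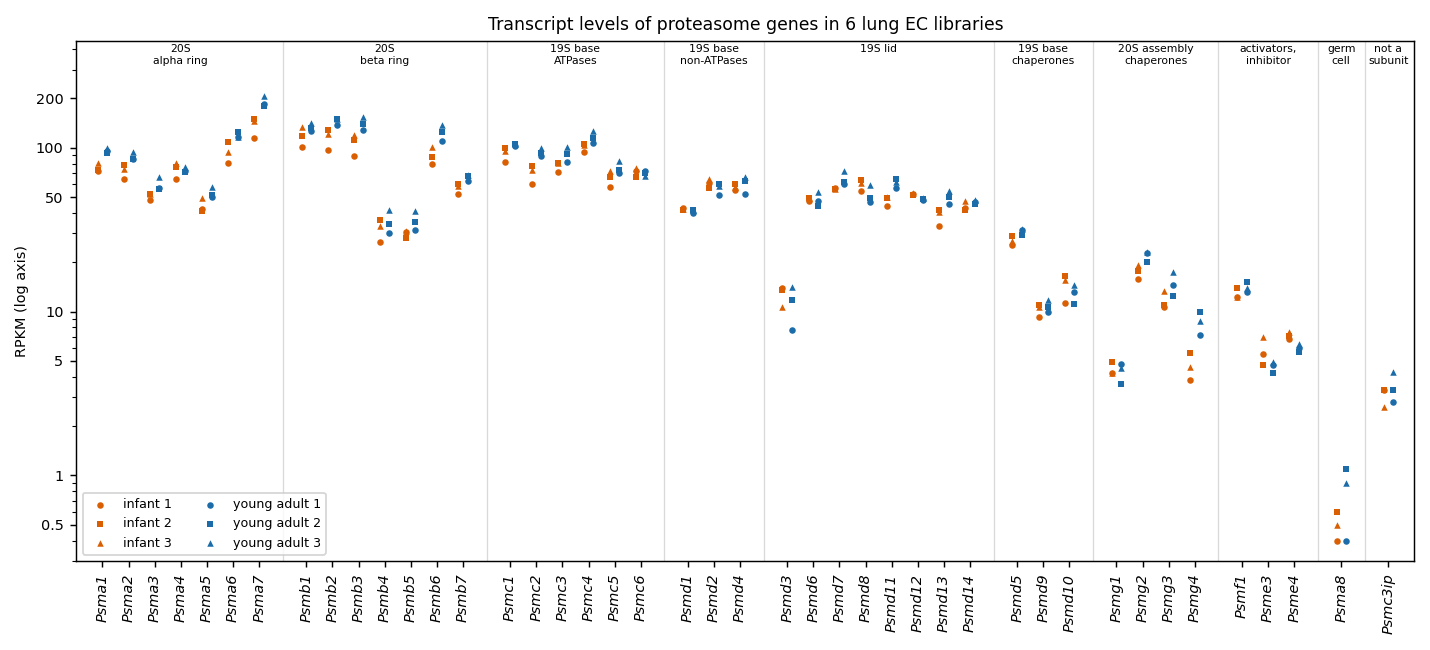
RPKM of each of the 43 proteasome genes (logarithmic vertical axis) in the 3 infant (orange) and 3 young adult (blue) libraries, with the marker shape giving the replicate and vertical lines parting the groups of subunits. Core and cap subunits lie between 7.7 and 208.3 RPKM, assembly factors, activators and the inhibitor between 3.6 and 31.9 RPKM, and Psma8 lies near the rounding step of 0.1 RPKM.

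Between infant and young adult EC the constitutive proteasome changed little. No member passed the thresholds of the study in either direction, which were a p under 0.05 and a log2 fold change beyond 0.81. Here both came from limma on log2(RPKM + 1), with p adjusted after Benjamini and Hochberg, whereas the study tested counts. Of all tested genes, 3.33% passed both upwards in young adult EC and 8.1% downwards. Without the fold threshold, 6 of 43 members (14%) were higher at an adjusted p under 0.05, against 9.26% of all tested genes, and 0 were lower, against 16.2%. At an unadjusted p under 0.05 there were 12 higher, against 15% of all tested genes, and 1 lower, against 25.4%. The 95% interval of the log2 fold change lay within 0.81 on either side of 0 for 41 of the 43. The exceptions were Psmg4 (0.41 to 1.13) and Psma7 (0.15 to 0.82). With a pseudocount of 0.1 in place of 1, Psmg4 passed both thresholds.

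The small differences mostly pointed one way. In 31 of 43 members (72.1%) the young adult mean was above the infant mean on the log2 scale, against 41.4% of all tested genes. The median log2 fold change of the members was 0.20 and that of all genes was -0.07. In 21 members (48.8%) every young adult library lay above every infant library, against 16.4% of all genes, and in 2 (4.65%), Psmd12 and Psme4, every one lay below, against 27.1%. However, this direction depends on the scale. An RPKM is a share of all reads, and globin transcripts took a larger share in infant libraries. With globin reads taken out of the total by their length-weighted share (0.904% to 7.34% in infant libraries), 1 member (Psmg4) was higher at an adjusted p under 0.05, against 7.74% of all genes, and the median was 0.14. On that scale 12 members did not overlap upwards and 3 downwards, against 14.2% and 32.5% of all genes. With the RPKM share itself taken out, which overstates short transcripts, the median was 0.00 and 1 member (Psmg4) passed, against 4.72% of all genes. Here 1 member did not overlap upwards and 4 downwards, against 8.04% and 39.8% of all genes. Centring each library on its median gene gave 18 members and a median of 0.33, and raised the share of all genes called higher to 15.5%. Under these settings the members' median lay 0.24 to 0.29 above that of all genes, and under quantile normalization it lay 0.08 above it. The count of 6 rested on single libraries as well. It was 10 without infant replicate 2, 1 without infant replicate 1, 2 without infant replicate 3, and 1, 0 and 1 without young adult replicates 1, 2 and 3. The share of all genes called higher moved as well, to 13.04% without infant replicate 2 and to between 3.81% and 5.16% without each of the others.

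**Figure D2:**
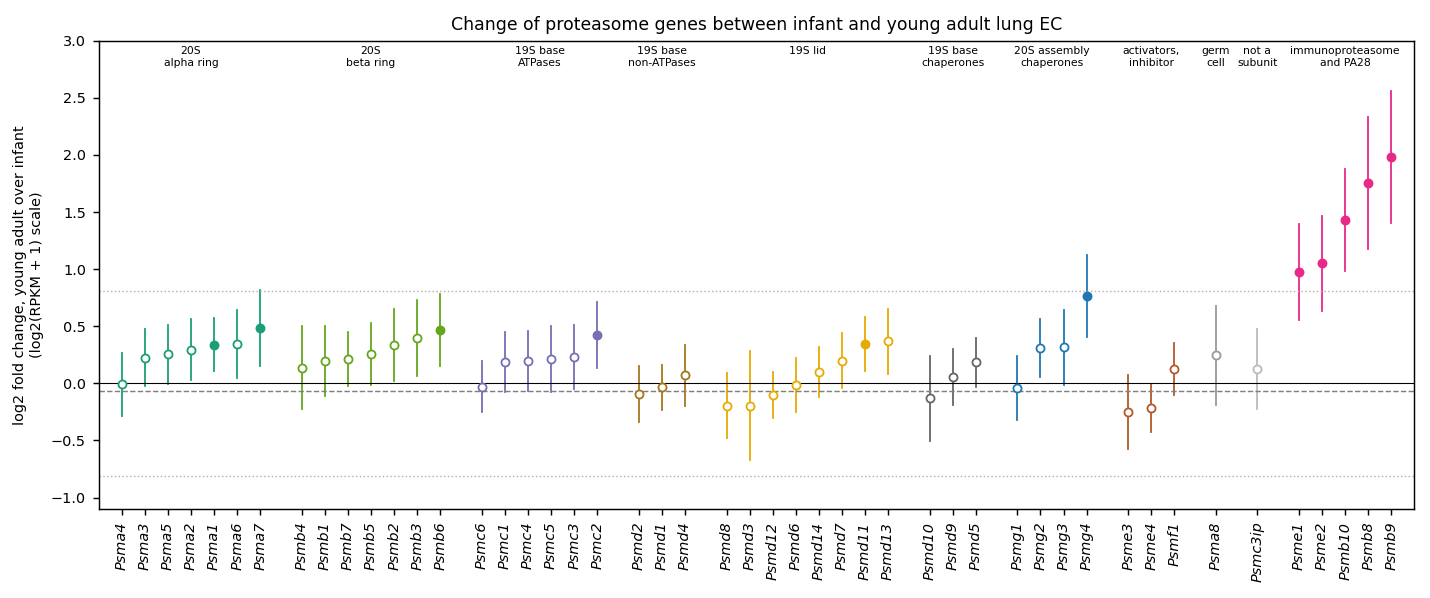
Log2 fold change of each member (points, with 95% intervals as bars) of young adult over infant EC on the log2(RPKM + 1) scale, grouped by particle, with the interferon-inducible genes at the right. Filled points have an adjusted p under 0.05, dotted lines mark the fold threshold at 0.81, and the dashed line marks the median of all genes at -0.07. The 6 filled member points lie between 0.34 and 0.77, below all 5 interferon-inducible genes at 0.97 and above.

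The 7 alpha genes of the core, whose proteins form the outer rings, had a median log2 fold change of 0.29, with 6 above and 1 below 0 and 2 higher at an adjusted p under 0.05. Psma7 (chromosome 2, 180036367 to 180042464), the most abundant member, measured 114.7, 150.0 and 145.4 RPKM (infant) against 184.3, 179.8 and 208.3 RPKM (young adult). The groups did not overlap, and infant replicate 1 was lowest. Psma7 rose by 0.48 ± 0.14 on the log2 scale (SE, limma adjusted p 0.0423), a ratio of means of 1.40. Psma1 (chromosome 7, 114264550 to 114276116) measured 72.6, 73.6 and 80.7 RPKM against 95, 92.8 and 99.9 RPKM. Here too all young adult libraries were above all infant ones, and the spread within each group was small (SD 4.42 and 3.63 RPKM, n = 3 each). Psma1 rose by 0.34 ± 0.10 (adjusted p 0.0425). Each of these calls was kept in 1 of the 6 fits that left out a library, the one without infant replicate 2. Psma4 behaved differently from the other alpha genes by value, with 64.0, 76.6 and 81.0 RPKM (infant) against 71.6, 71.4 and 76.1 RPKM (young adult). Its groups overlapped and its log2 fold change was -0.01 with a 95% interval of -0.28 to 0.26. The other 4 alpha genes had log2 fold changes of 0.22 (Psma3) to 0.35 (Psma6) with adjusted p above 0.05. In all 4 every young adult library lay above every infant one as deposited, as in 16.4% of all tested genes. Such counts depended on the scale, as given above for all members.

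All 7 beta genes had log2 fold changes above 0, against 41.4% of all tested genes. They ran from 0.14 for Psmb4 to 0.47 for Psmb6 (median 0.26). At an adjusted p under 0.05, 1 was higher, against 9.26% of all tested genes. Psmb6 (chromosome 11, 70525324 to 70527858), which encodes the caspase-like active subunit, measured 79.3, 88.3 and 101.0 RPKM (infant) against 110.6, 124.0 and 137.8 RPKM (young adult). Its groups did not overlap and differed by 0.47 ± 0.14 (SE, adjusted p 0.0405), which was kept without infant replicate 2 and without infant replicate 3 only. Psmb5 (chromosome 14, 54614120 to 54617995), for the chymotrypsin-like subunit, was the core gene with the lowest level, at 30.6, 28 and 31.1 RPKM against 31.6, 35.4 and 41.3 RPKM. The highest infant and the lowest young adult library nearly met, and the log2 fold change was 0.26 ± 0.12 (adjusted p 0.145). Psmb7 (chromosome 2, 38588046 to 38643952), for the trypsin-like subunit, measured 52.1, 60.2 and 58.5 RPKM against 62.7, 67.4 and 68.4 RPKM (0.22 ± 0.10, adjusted p 0.155). The structural subunit genes Psmb1, Psmb2 and Psmb3 were, with Psma7, the most abundant members, each with a mean of 124.2 to 130.7 RPKM. Psmb2 gave 97.3, 128.8 and 121.4 RPKM (infant) against 137.6, 149.2 and 150.1 RPKM (young adult) (0.34 ± 0.13, adjusted p 0.103). For Psmb1 the groups overlapped, with 100.6, 117.2 and 133.4 RPKM against 126.0, 132.6 and 141.3 RPKM (0.19 ± 0.13, adjusted p 0.311).

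Catalytic genes were then set against the interferon-inducible genes whose products can take their place. The inducible genes changed far more. Psmb8 measured 20.8, 38.5 and 22.8 RPKM (infant) against 82.2, 78.6 and 117.7 RPKM (young adult) (log2 fold change of young adult over infant 1.754 ± 0.25, limma adjusted p 0.00406). Psmb9 gave 13.9, 29.6 and 19.5 RPKM against 80.5, 71.0 and 97.4 RPKM (1.98 ± 0.25, adjusted p 0.00276), and Psmb10 45.6, 75.2 and 52.6 RPKM against 138.0, 149.5 and 177.5 RPKM (1.43 ± 0.19, adjusted p 0.0034). In each, infant replicate 2 was the highest infant library and still below all young adult ones. A ratio within a library hardly depends on how libraries are scaled, and was taken on RPKM + 1. For Psmb8 to Psmb5 the log2 ratio averaged -0.17 ± 0.54 over infant libraries and 1.32 ± 0.18 over young adult libraries (SD, n = 3). They differed by 1.497 (two-sided exact permutation test over libraries, p 0.1). For Psmb9 to Psmb6 it was -2.10 ± 0.48 and -0.58 ± 0.19, a difference of 1.51, and for Psmb10 to Psmb7 -0.01 ± 0.28 and 1.21 ± 0.13, a difference of 1.22 (exact permutation p 0.1 for both). These were 3 comparisons, each at the smallest p that 3 against 3 libraries can give, and the adjusted p was 0.1 for each, so none could pass 0.05. Without any 1 library the differences were 1.32 to 1.81, 1.35 to 1.79 and 1.13 to 1.38. Both members of a pair were at similar levels in infant EC for Psmb8 with Psmb5 and for Psmb10 with Psmb7, whereas Psmb9 stayed below Psmb6 in all 6 libraries. Counted together, the inducible genes made up 33.1%, 44.8% and 33.2% of the RPKM of the 6 catalytic genes in the infant libraries, against 59.5%, 56.9% and 61.3% in the young adult ones. This share moved mainly with its inducible part: the sum of Psmb5, Psmb6 and Psmb7 was 162.0, 176.5 and 190.6 RPKM and 204.9, 226.8 and 247.5 RPKM, while that of Psmb8, Psmb9 and Psmb10 was 80.3, 143.3 and 94.9 RPKM and 300.7, 299.1 and 392.6 RPKM.

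**Figure D3:**
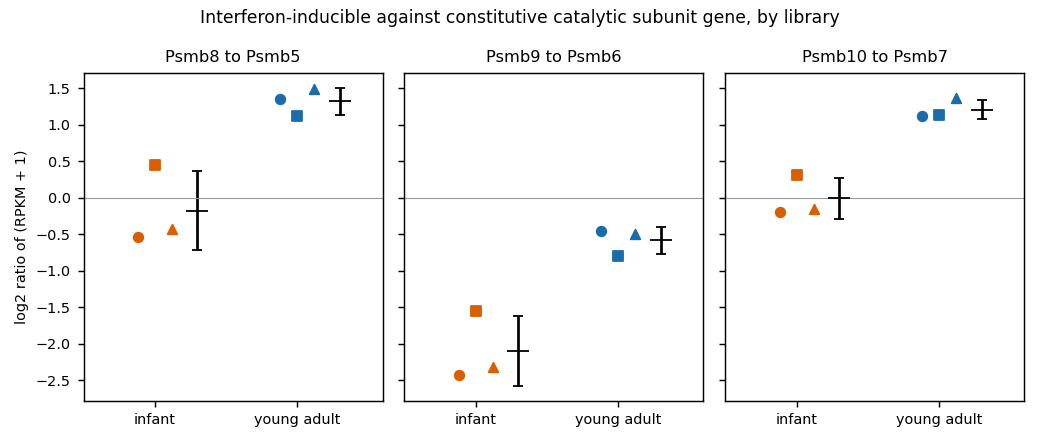
Log2 ratio of (RPKM + 1) of each interferon-inducible catalytic gene to the constitutive gene it can replace, in each library (orange infant, blue young adult, marker shape for the replicate), with mean and SD (n = 3) as black bars. In all 3 pairs the young adult libraries lie above the infant ones, and infant replicate 2 (square) is the infant library nearest to them.

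The 17 genes of the 19S regulatory particle moved less than those of the core by their median (0.10 against 0.28). Of the 17, 10 lay above 0, against 41.4% of all tested genes, and 7 below. The gap between both medians was 0.18 as deposited and 0.14 to 0.19 under the other scalings and without each library. It was not tested, since genes of one particle are not replicates. The ratio of the core median to the 19S median, per library, was 1.24, 1.36 and 1.41 (infant) against 1.72, 1.43 and 1.57 (young adult). The groups did not overlap, but infant replicate 3 and young adult replicate 2 were nearly equal. Of the 6 base ATPases, Psmc2 (chromosome 5, 21785275 to 21803787) was higher at an adjusted p under 0.05. It measured 60.2, 77.4 and 72.9 RPKM (infant) against 89.2, 92.4 and 100 RPKM (young adult), without overlap, a log2 fold change of 0.42 ± 0.12 (adjusted p 0.0428) that was kept in 1 of the 6 fits without a library. Its partners in the same ring lay at -0.03 (Psmc6) to 0.23 (Psmc3), with adjusted p of 0.189 or more.

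The scaffold genes Psmd1 and Psmd2 and the ubiquitin receptor gene Psmd4, which complete the base, had log2 fold changes of -0.03, -0.10 and 0.07. Psmd1 was the steadiest of these, at 42.6, 41.4 and 42.1 RPKM against 40.0, 41.6 and 41.5 RPKM. Its 95% interval was -0.23 to 0.16.

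Among the 8 lid genes, 4 lay above 0, against 41.4% of all tested genes, and 4 below (median 0.04). Psmd11 (chromosome 11, 80428615 to 80473248), whose product joins lid and core, rose from 44.1, 49.5 and 50.1 RPKM to 56.9, 64.4 and 61.8 RPKM. All young adult libraries were higher than all infant ones, by 0.34 ± 0.10 on the log2 scale (adjusted p 0.0439), with the call kept in 1 of the 6 fits without a library. The deubiquitinase gene Psmd14 (chromosome 2, 61711694 to 61800376) overlapped between groups, with 42.6, 41.5 and 47.0 RPKM against 46.7, 45.3 and 48.1 RPKM (0.10 ± 0.09, adjusted p 0.485). Psmd12 showed little spread, with 52.5, 51.8 and 52.6 RPKM against 47.7, 48.8 and 49.4 RPKM. These groups did not overlap, yet the difference of -0.10 ± 0.09 had an adjusted p of 0.405, in a test that takes part of its spread from genes of like level. Psmd3, by contrast, varied most within a group, with 14.0, 13.5 and 10.6 RPKM (infant) against 7.7, 11.7 and 14.2 RPKM (young adult), and its 95% interval was -0.67 to 0.28.

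The largest change of all members was that of Psmg4 (chromosome 13, 34162964 to 34178172), which encodes a chaperone that helps alpha rings form. It rose from 3.8, 5.6 and 4.6 RPKM to 7.2, 10.0 and 8.7 RPKM in young adult EC, a ratio of means of 1.85. No infant library reached a young adult one. The log2 fold change of 0.77 ± 0.15 (adjusted p 0.0131) fell just short of the fold threshold on this scale, which understates low levels, and passed it with a pseudocount of 0.1. The call held under all scalings tried and was lost only without young adult replicate 2 (adjusted p 0.0587). Both of its transcript rows showed this, the second with 3.5, 5.2 and 4.3 RPKM against 6.3, 9.1 and 7.7 RPKM. The other chaperones of core assembly did not pass the test. Psmg1 gave 4.2, 4.9 and 4.2 RPKM against 4.8, 3.6 and 4.5 RPKM (-0.04 ± 0.12, adjusted p 0.834), although its product works as a pair with that of Psmg2. Psmg2 differed by 0.31 on the log2 scale (adjusted p 0.0733), as did Psmg3 (adjusted p 0.142), whose product is the partner of PSMG4. Of the base chaperones, Psmd5 (0.18), Psmd9 (0.06) and Psmd10 (-0.13, X-linked) had adjusted p of 0.182 or more.

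Both alternative activators were at the low end of the group and were not higher in young adult EC. Psme4, which encodes PA200, measured 6.8, 7.1 and 7.5 RPKM (infant) against 6.0, 5.7 and 6.3 RPKM (young adult). The groups did not overlap, and the log2 fold change was -0.22 ± 0.09 (adjusted p 0.117). Psme3, for the nuclear activator PA28 gamma, gave 5.5, 4.7 and 7.0 RPKM against 4.7, 4.2 and 4.9 RPKM (-0.25 ± 0.14, adjusted p 0.211). Its interferon-inducible relatives differed in direction: Psme1 measured 57.6, 91.0 and 75.2 RPKM against 133.4, 136.9 and 167.0 RPKM (0.97 ± 0.18, adjusted p 0.0102), and Psme2 35.0, 54.1 and 43.2 RPKM against 84.5, 82.6 and 108.0 RPKM (1.05 ± 0.18, adjusted p 0.00746). In young adult EC even the lowest library for Psme2 stood far above any for Psme3. The inhibitor gene Psmf1, for PI31, overlapped between groups at 12.3, 13.9 and 12.2 RPKM against 13.2, 15.1 and 13.9 RPKM (0.13 ± 0.10, adjusted p 0.366). Psmc3ip, no part of the proteasome, had 3.3, 3.3 and 2.6 RPKM against 2.8, 3.3 and 4.3 RPKM (adjusted p 0.565), and Psma8 0.4, 0.6 and 0.5 RPKM against 0.4, 1.1 and 0.9 RPKM (adjusted p 0.36).

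Some libraries were low or high across the members as a whole. Infant replicate 1 had the lowest value of all 6 libraries in 24 of 43 members and young adult replicate 3 the highest in 27. Infant replicate 1 was not low throughout, since its median over all tested genes was the highest of the libraries (6.6 RPKM, against 5.7 to 6.4 RPKM in the others). Within a group the median SD on the log2 scale was 0.13 for the members and 0.16 over all tested genes. These sets were not matched for level, and the median member lay above 92.5% of all tested genes.

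Genes that work with the proteasome were examined from lists of other subunits, ubiquitin enzymes and shuttles, ubiquitin and E1 genes, the VCP segregase and regulators of proteasome genes. Of 35 tested, 2 were higher at an adjusted p under 0.05, against 9.26% of all tested genes, and 0 were lower, against 16.2%. Their median log2 fold change was -0.03. Nfe2l2, for the stress-responsive factor NRF2, rose from 46.3, 56.4 and 51.9 RPKM to 71.9, 62.8 and 70.8 RPKM (0.41 ± 0.11, adjusted p 0.0364), without overlap between the groups. Its call was lost when globin was taken out by its RPKM share or by its length-weighted share, and was kept in 1 of the 6 fits without a library. The related Nfe2l1, for NRF1, the activator of proteasome genes when proteasome activity falls short, differed by -0.20 (adjusted p 0.225). The assembly factor gene Pomp, which is not among the 43, was at 124.6, 149.6 and 148.9 RPKM against 177.2, 164.3 and 180.8 RPKM (0.31 ± 0.12, adjusted p 0.104). The other subunit genes Adrm1 and Shfm1, for cap proteins, had log2 fold changes of 0.22 and 0.13, both with overlapping groups. The ubiquitin gene Ubb was at 4090 to 5637 RPKM over the 6 libraries (adjusted p 0.648). Uchl5 and Usp14, the deubiquitinases that bind the 19S particle, differed by -0.11 and -0.03.

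**Figure D4:**
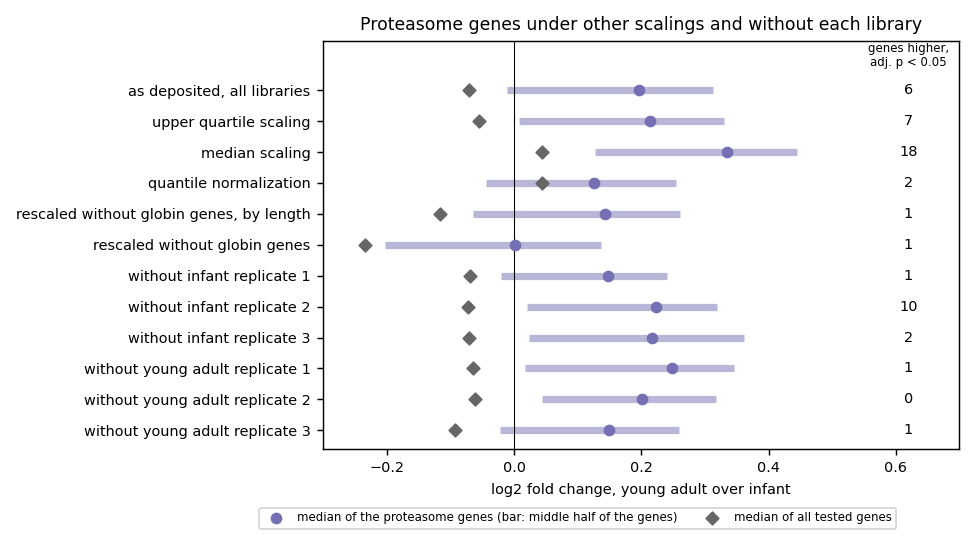
Median log2 fold change of the 43 members (circles, with bars for the interquartile range) and of all tested genes (diamonds) under each scaling and without each library, with the number of members higher at an adjusted p under 0.05 at the right. The members' median is 0.20 as deposited and 0.00 when globin is taken out by its RPKM share, and lies right of the diamond in every line.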

How the data were processed

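RNA-seq of lung EC was analysed in 6 libraries, grouped by their titles. According to the study's methods, the SMARTer Ultra Low kit amplified the RNA, and paired reads were aligned to mm10 with STAR on the RefSeq annotation. The authors deposited RPKM per RefSeq transcript, rounded to 0.1. The STAR version and the RPKM program are not given in the sources used here, and their count test was replaced because of the unit. Each of the 12623 genes was represented by its most abundant transcript row (24 rows with symbols turned into dates were restored by accession). Genes with at least 1 RPKM in at least 1 library (12458) entered limma 3.58.1 (R 4.3.3), fitted to log2(RPKM + 1) with an intensity trend and age as the only term. The filter and the fold threshold (0.81 on the log2 scale) follow the study. The script was tested on simulated data. Members and gene lists were chosen with earlier results of these data known. Values are given in full for members with an adjusted p under 0.05, catalytic subunits, Psmd14, activators, Psmf1, the 3 highest and 3 lowest members, inducible counterparts and, of the related lists, Nfe2l2, which passed. Psma4, Psmd1, Psmd3, Psmd12, Pomp and the other genes named beyond this were chosen after their values were seen. 91.8% of genes had a GENCODE M21 transcript length for the length-weighted globin share. Others took the median length. Alternatives were other pseudocounts, filters and scalings, array weights, a replicate block and leaving out each library. Values of some genes of the related lists that were tested are not reported here.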

Additional observations from a re-analysis of the deposited data

How the results depend on the processing

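The count of 6 members higher at an adjusted p under 0.05 was 18 with libraries centred on the median gene. After quantile normalization it was 2, against 12.6% of all tested genes. These were Psmg4 and Psma8, the latter not among the 6 and at 0.4 to 1.1 RPKM. The count was 1 with globin taken out by its RPKM share and 1 by its length-weighted share, the latter chosen after seeing the data. It was 0 to 10 in the fits without 1 library. No member was called lower in any fit, by either rule. With the fold threshold, 1 member instead of 0 was called higher at a pseudocount of 0.1, under median scaling, after quantile normalization and with array weights, and 0 to 1 without a library. The members' median of 0.20 was 0.33 under median scaling and 0.0012 with globin taken out by its RPKM share, and 0.15 to 0.25 without a library. Taking out globin by its RPKM share also turned the sign of Psmd14 (-0.10), Psmf1 (-0.056), Psmb1 (-0.0011) and Psmc3ip (-0.022). Psmc3ip was -0.0037 to 0.24 without a library, below 0 without young adult replicate 3, and Psmg1 was 0.0745 under median scaling, 0.13 after quantile normalization, 0.02 when infant replicate 2 was left out and 0.058 when young adult replicate 2 was. None of these 5 passed the test in any of these fits. The 5 interferon-inducible genes passed in every fit but that against the fold threshold itself (limma treat). Same-numbered libraries showed no sign of pairing. Their deviations from the group means correlated at 0.03, -0.11 and -0.02, and not every library correlated best with its own number. With 3 libraries per group, such correlations cannot exclude that same-numbered libraries were processed together. With a replicate block 2 of the 43 members were higher at an adjusted p under 0.05, Psmb6 and Psmg4, against 6.855% of all tested genes. The 3 ratio differences were then 1.497, 1.51 and 1.22 (exact sign-flip p 0.25 each, the smallest that 3 pairs allow). With no counts, precision is limited by the 3 libraries per group.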
